A study of Homo sapiens with 2 samples.

Results

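The chromatin-modifying enzyme families described here comprise the histone acetyltransferases named KAT and the deacetylases named HDAC and SIRT. They also comprise the methyltransferases named EZH and SETD, the demethylases named KDM and the arginine methyltransferases named PRMT. The last are the DNMT family of DNA methylation and the DNA-oxidising TET enzymes. Members were taken by name alone, as every probe whose gene name in the files starts with 1 of these 9 family names followed by its number. This gave 127 of the 58201 probes on each array and 74 of the 43317 names. Of the 74 names 71 are enzyme genes and 3 are antisense transcripts (HDAC11-AS1, KDM4A-AS1 and PRMT5-AS1). SETD8 is an older symbol of KMT5A, and the other 73 names are current symbols.

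Total RNA of 2 human cell cultures was compared. HL60, a promyelocytic line established from an acute myeloid leukaemia, was grown without drug. R-HL60 was derived from it by prolonged exposure to rising concentrations of cytarabine, a deoxycytidine analogue that blocks DNA synthesis, and is labelled cytarabine resistant and cytarabine treated. The drug concentration at harvest, and whether R-HL60 is a single clone, are not stated in the labels. There was 1 one-colour Agilent array per line. Differences therefore carry neither a test nor an error between cultures, and the culture, the array and the line cannot be told apart.

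Many of these enzymes add or remove the acetyl and methyl groups that mark open and closed chromatin. Since members were taken by name, some that act on other substrates are included, as given below. Acetylation of histone lysines by KAT enzymes accompanies active genes and is reversed by the zinc-dependent HDACs and the NAD-dependent sirtuins. Methylation has different effects by residue: EZH2 of Polycomb repressive complex 2 lays down a silencing mark, SETD1A and SETD1B a mark of active promoters, and KDM enzymes take such marks away. DNMT enzymes methylate cytosine in DNA and TET enzymes oxidise that methyl group. Several of these genes, among them DNMT3A, TET2 and EZH2, are recurrently mutated in myeloid leukaemia, and HDAC, EZH2, KDM1A and DNMT inhibitors have been developed as drugs.

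Signals are linear intensities. Differences are log2 values, R-HL60 minus HL60, after each array was set to its own 75th percentile (292 and 294). A probe counted as measured where it lay above the array's median signal, used as a floor, which was 30.7 on the HL60 array and 32.8 on the R-HL60 array. Of the 127 member probes 111 were measured on both arrays, 2 on the HL60 array only, 2 on the R-HL60 array only and 12 on neither. The labelled cell type was checked against markers: all 11 promyelocytic markers found on the array were measured in both, against 8 of 10 lymphoid, 6 of 7 erythroid, 3 of 7 epithelial and 1 of 8 fibroblast markers. Below the floor on both arrays lay EPCAM, CDH1, KRT5 and KRT14 (epithelial) and COL1A1, COL1A2, COL3A1, LUM, PDGFRA and THY1 (fibroblast). So did CD3G and PAX5 (lymphoid) and GATA1 (erythroid). Since most lymphoid and erythroid markers also passed the floor, this check separates the blood lineages poorly. Summed over the highest probe of each gene, the promyelocytic marker signal was 945255 in HL60 and 845180 in R-HL60, with a median log2 difference of -0.15. The lymphoid marker signal was 7066 and 9752, with a median of 0.15. In the same order, the sums were 1865 and 1809.5 for erythroid, 1696 and 1918 for epithelial and 124 and 144 for fibroblast markers. The part of any of these in the values below was not tested.

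Transcript signals of the chromatin-modifying enzymes were close to equal in the resistant and the parental line. Of the 115 member probes measured on at least 1 array, 0 were at least 2-fold higher in R-HL60, where 0.705% of all 30197 such probes were. A single member probe, one of the deacetylase gene HDAC9, was at least 2-fold lower, against a background of 0.285%. At 1.5-fold the counts were the same, 0 higher and 1 lower, where 3.31% of all probes were higher and 1.33% lower. The median difference over the 111 probes measured on both arrays was -0.06, beside -0.03 over all 28003 probes measured on both. Differences had an SD of 0.21, or 0.17 without HDAC9, and 89.2% of member probes lay within 1.25-fold, against an SD of 0.28 and 84.1% over all probes. These values over all probes were not matched for brightness, on which both calls and spread depended, as given below.

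**Figure D1:**
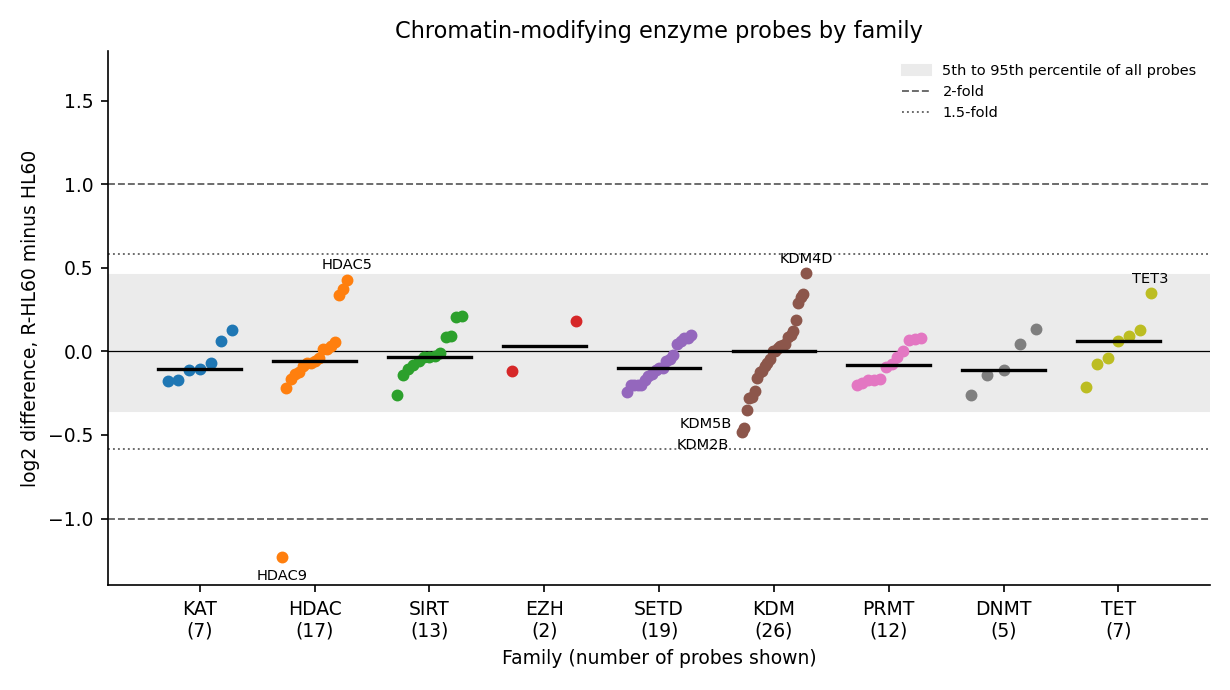
Log2 difference (R-HL60 minus HL60) of each enzyme probe measured on both arrays, by family; black bars are family medians, the grey band spans the 5th to 95th percentile of all probes, and dashed and dotted lines mark 2-fold and 1.5-fold. All points but the HDAC9 probe at -1.23 lie between the 1.5-fold lines; KDM5D is left out.

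HDAC9 encodes a class IIa deacetylase, a family that shuttles between nucleus and cytoplasm and represses MEF2 transcription factors. One of its 3 probes gave a signal of 183 in HL60 and 78.6 in R-HL60. That is a 2.34-fold lower signal in the resistant line, and the log2 difference of -1.23 compares with a probe-to-probe SD of 0.21 at this brightness. Another probe gave 71.9 and 62.1, a difference of -0.22, and the third lay below the floor on both arrays at 16.4 and 15.7. The measured probes therefore pointed the same way but differed by 1.01 among themselves, a range reached by 45 of the 4721 genes with several measured probes. Over the measured probes the mean was -0.72 ± 0.71 (SD, n = 2 probes), and with 50 units added to each signal, which shrinks folds of dim probes, the lower probe gave -0.87. Neither value reaches 2-fold.

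RefSeq gives HDAC9 5 start windows on chromosome 7 (GRCh38.p14), and the probe sequences that would tell which transcripts each probe reads were not used here. The windows with the most and the fewest CG dinucleotides are shown because HDAC9 is the member whose probes differed most. Whether its starts bear on that difference was not tested. The bases are the 250 before each start, 5′ to 3′ on the plus strand, with CG in capitals. The first, at chr7:18086575-18086824, holds 32 CG and the second, at chr7:18509020-18509269, holds 0. Counted with the 50 bases after each start as well, the 5 windows hold 41, 5, 5, 5 and 0 CG.
HDAC9, CG-rich start: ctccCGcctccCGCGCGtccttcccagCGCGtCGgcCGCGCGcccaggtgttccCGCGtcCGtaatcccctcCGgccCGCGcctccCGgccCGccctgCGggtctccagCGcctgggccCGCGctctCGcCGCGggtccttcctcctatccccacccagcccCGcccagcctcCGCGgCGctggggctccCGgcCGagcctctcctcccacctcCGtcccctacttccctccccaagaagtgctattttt
HDAC9, CG-poor start: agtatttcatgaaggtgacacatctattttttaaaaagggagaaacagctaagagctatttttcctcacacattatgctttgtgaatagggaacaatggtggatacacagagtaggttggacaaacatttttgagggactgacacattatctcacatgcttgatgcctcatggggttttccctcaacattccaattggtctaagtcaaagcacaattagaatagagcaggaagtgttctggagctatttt

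The other class IIa genes did not share the lower signal. HDAC5 gave 201 in HL60 and 272 in R-HL60, 1.35-fold higher (0.43), on its only probe. HDAC7 gave 546 and 711 on one probe (0.37) and 53.1 and 55.6 on another (0.06), so the size of its difference depended on the probe. HDAC4 gave 2196 and 2229, a difference of 0.01.

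Class I deacetylases, the nuclear catalytic subunits of the NuRD, Sin3 and NCoR corepressor complexes, were nearly equal in both lines. HDAC1 gave 29473 in HL60 and 28301 in R-HL60 (-0.07) and HDAC3 gave 16931 and 16549.8 (-0.04). Both differences were within the probe-to-probe SD of 0.10 at this brightness. The 4 other scalings tried were quantile normalization, a shift to a common median, loess on brightness and the authors' normalized table. The sign of HDAC1 changed under 2 of them and that of HDAC3 under 3. Quantile normalization and the authors' table gave the same values here, 0.005 for HDAC1 and 0.03 for HDAC3. The median shift moves every probe by the same amount. Here and below, the 4 scalings are therefore not 4 independent checks. HDAC2 gave 20840 and 18720.4 on one probe (-0.16) and 129 and 119 on the other (-0.12). HDAC8, which acts outside those complexes, had 4 measured probes between -0.14 and 0.03. Over the 8 class I probes the median was -0.08 and all 8 lay within 1.25-fold.

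Among the remaining deacetylases, HDAC10, a polyamine deacetylase, gave 162 and 206 (0.34, or 1.27-fold higher). HDAC6, the cytoplasmic tubulin deacetylase, gave 93.9 and 95.4 on one probe and 49.6 and 47.6 on the other. HDAC11, the only class IV member, lay near the floor: one probe was measured in R-HL60 only, at 41.6 and at least 1.35-fold higher, another in HL60 only, at 32.5, and the third on neither array. The HDAC family median was -0.06 over 17 probes, 10 of them below 0.

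Sirtuins differed little. SIRT1, a nuclear deacetylase of histones and p53, gave 727 in HL60 and 665 in R-HL60 (-0.14), and SIRT6, a chromatin-bound deacetylase, gave 2503 and 2672 (0.09). All 13 sirtuin probes were measured on both arrays and within 1.25-fold, with a median of -0.03. The widest disagreement was within SIRT5, the mitochondrial desuccinylase, whose 4 probes ran from -0.26 (663 and 556) to 0.21 (284 and 331). SIRT2, SIRT3, SIRT4 and SIRT7 lay between -0.11 and 0.09 on every probe.

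The histone acetyltransferases were measured for all 7 genes. KAT6A, which is fused to other genes in some acute myeloid leukaemias, gave 2311 in HL60 and 2066 in R-HL60 (-0.17). Its paralogue KAT6B gave 272 and 242 on one probe (-0.18) and was at least 1.10-fold higher on another that was measured in R-HL60 only, so its probes did not point the same way. KAT2A, the acetyltransferase of the SAGA complex, gave 8307 and 7775 (-0.10). KAT7, which acetylates histone H3 and H4 near replication origins, had the largest positive difference among KAT probes measured on both arrays, at 601 and 660.3 (0.13). KAT8, KAT2B and KAT5 had differences of 0.06, -0.07 and -0.11, and the family median was -0.10.

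EZH2, the catalytic subunit of Polycomb repressive complex 2, gave 8747 in HL60 and 8125 in R-HL60 (-0.11). EZH1, its paralogue, which is more prominent in non-dividing cells, gave 783 and 892 (0.18). Each gene had 1 probe, so no spread between probes is known, and the probe-to-probe SD at their brightness was 0.13 and 0.14, respectively. The direction of both held under the 4 other scalings, which gave -0.11 to -0.04 for EZH2 and 0.19 to 0.23 for EZH1. All probes at the brightness of EZH2 had a median of -0.07, and those at the brightness of EZH1 -0.05.

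SETD genes were all measured, on 19 probes with a median of -0.10, 14 of them below 0 and all 19 within 1.25-fold. SETD2, which trimethylates histone H3 lysine 36 on transcribed genes, gave 399 and 376 (-0.10). SETD1A, a promoter methyltransferase, gave 9337 and 8182 (-0.20). SETD8, which methylates histone H4 lysine 20, gave -0.11 and -0.13 on its probes. SETD4 held the largest negative difference of the family, 8424 in HL60 and 7165 in R-HL60 (-0.24), while its other probe gave 0.08. SETD3, an actin methyltransferase, held the largest positive one at 0.10, and another of its probes gave -0.10. SETD1B, SETD5, SETD6, SETD7 and SETD9 ran from -0.20 to 0.08.

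The demethylases had a median of 0.00 over 27 measured probes, 13 below and 14 above 0, but the widest spread of the families apart from HDAC, with an SD of 0.24. KDM5B, which removes methyl groups from histone H3 lysine 4, was lower in R-HL60 on both of its probes. One gave 6382 in HL60 and 5034 in R-HL60 (1.28-fold lower) and the other 1407 and 1030.1 (1.37-fold lower). The mean was -0.40 ± 0.08 (SD, n = 2 probes), where single probes of this brightness had a probe-to-probe SD of 0.13 to 0.14. Under the 4 other scalings the first probe lay between -0.34 and -0.28 and the second between -0.45 and -0.41. Of the 4721 genes with several measured probes, 52 (1.10%) had every probe at or below the higher of these. KDM5B was picked for its low values, so this share gives its position only and is no test. Every measured probe lay below 0 in 13 of the 30 names with several, and KDM5B had the lowest mean of these after HDAC9. The 250 bases before the single RefSeq start of KDM5B, at chr1:202808422-202808671 (GRCh38.p14, minus strand), are shown for that reason, a choice made after its values were seen. Its 27 CG are in capitals.
KDM5B: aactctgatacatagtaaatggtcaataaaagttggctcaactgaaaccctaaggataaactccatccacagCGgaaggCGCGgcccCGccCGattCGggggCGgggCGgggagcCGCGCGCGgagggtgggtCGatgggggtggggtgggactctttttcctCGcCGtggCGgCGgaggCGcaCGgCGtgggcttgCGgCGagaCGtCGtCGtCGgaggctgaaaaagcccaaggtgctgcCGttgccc

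KDM2B, a lysine 36 demethylase that also recruits a Polycomb complex to CG-rich DNA, was lower on all 3 probes. They gave 766 and 638 (-0.27), 527 and 451 (-0.23), and 54.5 and 39.2 (-0.48). The last lies near the floor and was -0.24 with 50 units added. The mean was -0.33 ± 0.13 (SD, n = 3 probes), and 192 of the 4721 genes (4.07%) had every probe at or below the highest of these. KDM2B too was named by its values, so this share is no test. KDM4B gave 6729 and 5588 (-0.28) on one probe, and at least 1.06-fold lower on another that was measured in HL60 only.

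On the other side, KDM4D, a lysine 9 demethylase, gave 97.7 in HL60 and 136 in R-HL60, 1.38-fold higher (0.47) on its only probe. KDM4C, of the same subfamily, had 4 measured probes between 0.01 and 0.32, all above 0, one of them at 1114 and 1125 (0.01). Its highest value came from the probe closest to the floor, at 30.7 and 38.7. KDM1B gave 0.04 and 0.34 and KDM7A 0.00 and 0.29 on their probes. In each of these 3 genes one probe was thus close to equality and another was not. The highest probes were dim, with a probe-to-probe SD at their brightness of 0.21 for KDM1B and KDM7A and 0.28 for KDM4C. With 50 units added they gave 0.26, 0.21 and 0.13, respectively.

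KDM1A, the flavin-dependent lysine 4 demethylase, gave 593 and 611 (0.03). KDM6A gave 838 and 794 (-0.09) and 122 and 110 (-0.16), and its paralogue KDM6B gave 113 and 117 (0.04); both remove the mark that EZH2 lays down. The remaining measured KDM genes that are described singly, namely KDM2A, KDM3A, KDM3B, KDM4A, KDM5C and KDM8, lay between -0.12 and 0.12. KDM5A and KDM4E were below the floor on both arrays on their only probes, and KDM5D was counted but is not described singly.

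PRMT genes were likewise close to equality, with a median of -0.08 over 12 measured probes, all within 1.25-fold. PRMT1, the main asymmetric arginine methyltransferase, gave 8899 in HL60 and 7863 in R-HL60 (-0.19). PRMT5, the main symmetric one, gave 24617 and 22133 (-0.16) and 1673 and 1578 (-0.09). PRMT6 held the largest negative difference at -0.20 (5448 and 4777) and PRMT9 the largest positive one at 0.08 (462 and 491). PRMT7 was below 0 on all 3 probes, from -0.17 to -0.03. PRMT2 lay between -0.07 and 0.08 and PRMT3 at 0.00, and PRMT8 was below the floor on both arrays.

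Of the DNA methyltransferases, DNMT1, which copies methylation after replication, gave 9356 in HL60 and 8731 in R-HL60 (-0.11). DNMT3A gave 139 and 154 (0.14), 432 and 394 (-0.14), and 363 and 376 (0.04), a mean of 0.01 ± 0.14 (SD, n = 3 probes). DNMT3B, the other de novo enzyme, was the lowest of the measured DNMT probes at 1579 and 1326 (-0.26), where the probe-to-probe SD was 0.14. Its other probe and the single probe of DNMT3L, a cofactor without catalytic activity, lay below the floor on both arrays. TET2 gave 4 values from -0.04 to 0.13, with a mean of 0.06 ± 0.07 (SD, n = 4 probes). TET1 gave 285 and 248 (-0.21) and 55.0 and 52.6 (-0.07). TET3 was measured by 1 of its 3 probes, at 54.8 and 70.2 (0.35), where the probe-to-probe SD was 0.29.

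**Figure D2:**
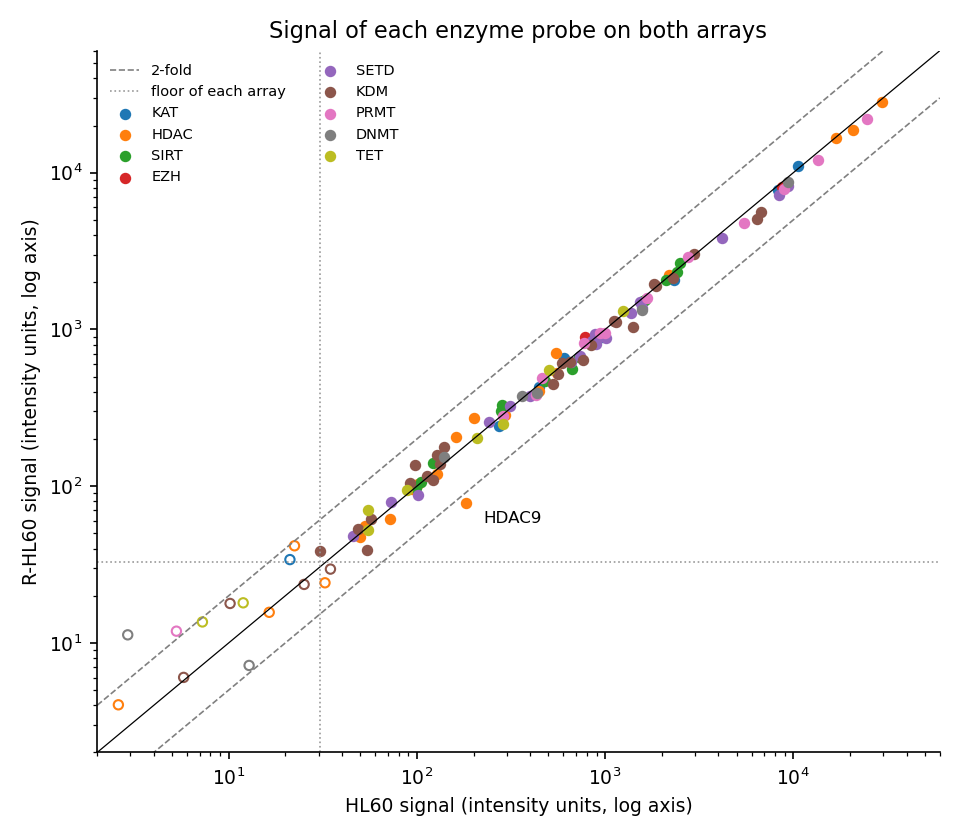
Signal of each enzyme probe in HL60 (x) and R-HL60 (y) in intensity units on log axes, coloured by family; open circles were not measured on both arrays, dashed lines mark 2-fold and dotted lines each array's floor of 30.7 and 32.8. Points follow the diagonal from the floor to 29473, and among filled points only the HDAC9 probe at 183 and 78.6 lies beyond 2-fold; KDM5D is left out.

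Different probes of a gene were the only repeated measurement. In all, 30 member names had at least 2 measured probes, and their pooled probe-to-probe SD was 0.17, or 0.13 without HDAC9, against 0.19 over all 4721 such genes. Every measured probe lay below 0 in 13 of the 30 names and above 0 in 5, and 12 had probes on both sides. Together 60% of the names kept to one side of 0, close to the 62.2% of all genes with several probes. Only HDAC9 had probes more than 0.5 apart, as did 8.39% of all such genes.

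**Figure D3:**
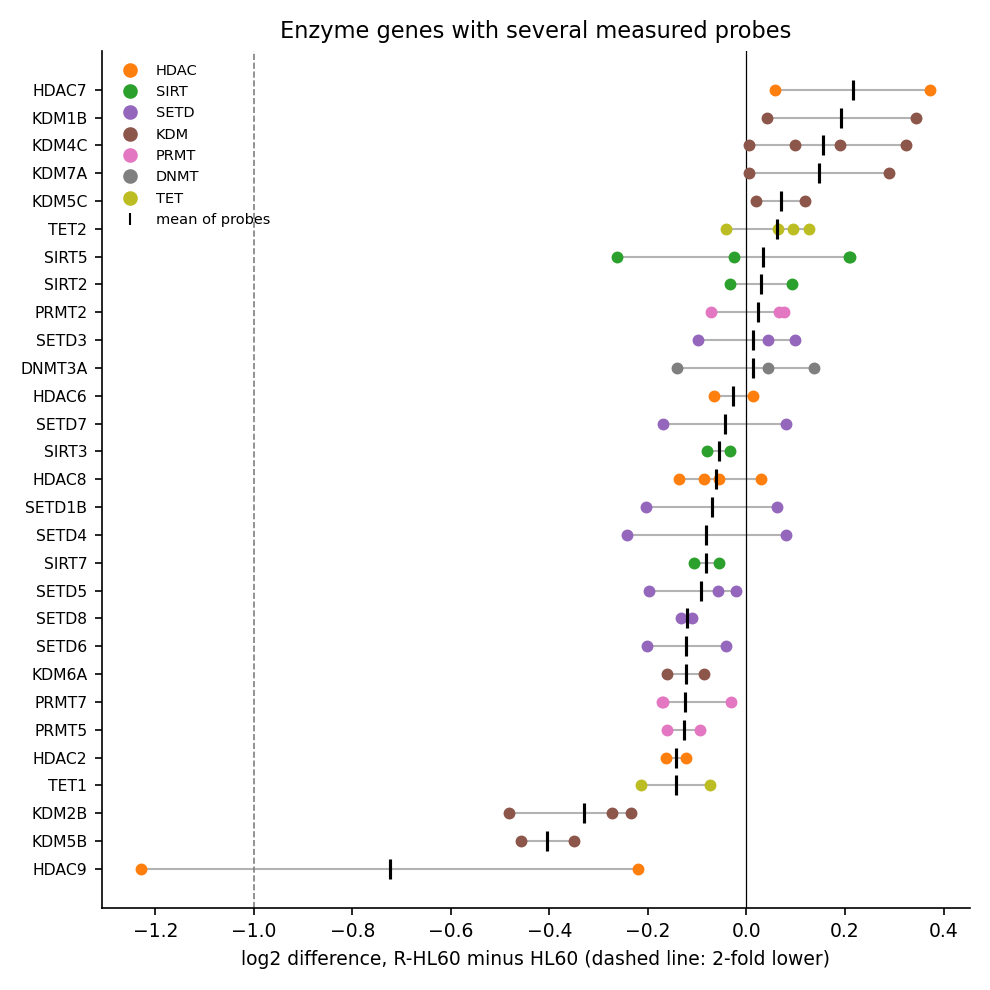
Log2 difference (R-HL60 minus HL60) of each measured probe for the 29 enzyme genes with 2 or more; a row is a gene, a point a probe, and the black tick the mean of its probes. HDAC9, KDM5B and KDM2B have the lowest means, at -0.72, -0.40 and -0.33, and the HDAC9 probes lie 1.01 apart.

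The small negative medians have to be read beside the brightness of the probes. Over all probes the median difference went from 0.05 in the dimmest of 10 equal brightness bins to -0.07 in the next to brightest, and the probe-to-probe SD from 0.28 in the dimmest bin to 0.10 in the brightest. In the brightest 3 bins the 32 member probes had a median of -0.11 with 78.1% below 0, where all 8401 probes had -0.06 and 69.7%. In the dimmest 3 bins the 19 member probes had a median of 0.03 and all probes also 0.03. Of all 8401 probes in the dimmest 3 bins 500 were at least 1.5-fold higher, against 68 in the brightest 3. Within 1.25-fold lay 78.9% of member probes and 72.8% of all probes in the dimmest 3 bins. In the brightest 3 bins these shares were 96.9% and 94.0%, so the gap to all probes was smaller at like brightness among bright probes. Under 4 other scalings the member median stayed between -0.05 and -0.02, and each family median kept its sign, but not its size. Loess took the HDAC median from -0.06 to -0.006, SIRT from -0.03 to -0.002 and KAT from -0.10 to -0.04. It took PRMT from -0.08 to -0.03 and SETD from -0.10 to -0.06. The EZH and TET medians rose to 0.09 and the KDM median to 0.04. The KDM median of 0.00 went below 0 with other choices of probes, to -0.04 with a floor at the 40th percentile, -0.02 with one at the 60th, and -0.04 with either the brightest probe or the mean of measured probes per gene.

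**Figure D4:**
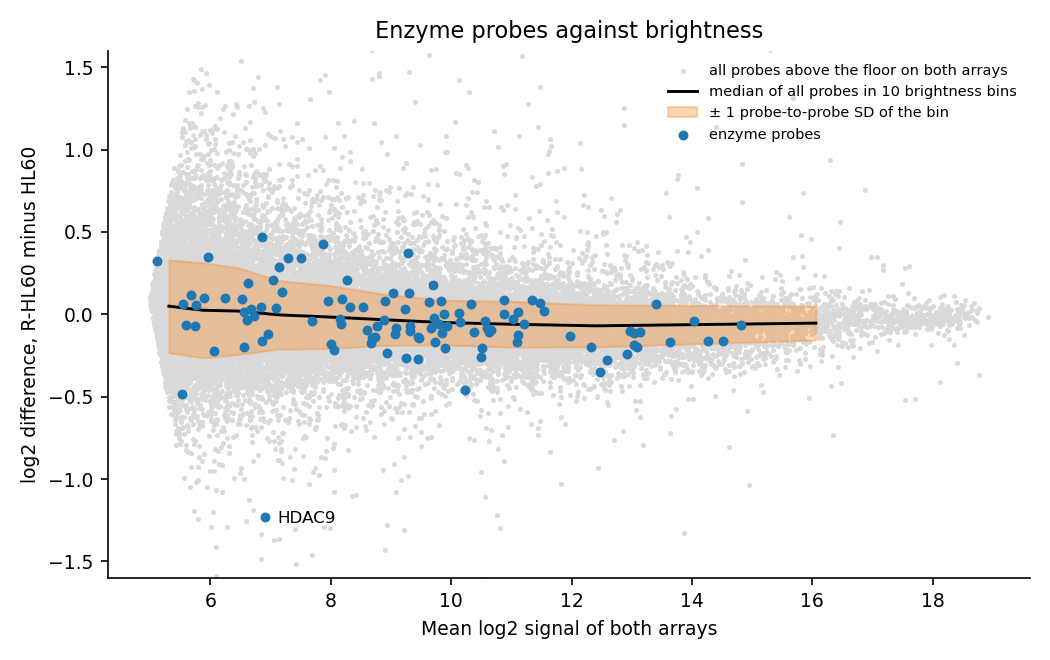
Log2 difference (R-HL60 minus HL60) against the mean log2 signal of both arrays for enzyme probes (blue) and all probes measured on both arrays (grey, cut at ±1.6); the black line is the median of all probes in 10 bins and the orange band ± 1 probe-to-probe SD of the bin. The band narrows from 0.28 to 0.10, and the HDAC9 probe at -1.23 lies far below it; KDM5D is left out.

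Genes that work with these enzymes were examined in 7 lists of 172 names, of which 153 were on the array with 255 probes. Of 236 probes measured on at least 1 array, 1 was at least 1.5-fold higher, 0 were 1.5-fold lower and 0 passed 2-fold in either direction. Over all 30197 such probes, 3.31% were 1.5-fold higher and 1.33% lower, and 0.705% were 2-fold higher and 0.285% lower. The median was -0.09 over 233 probes, 66.5% of them below 0, beside 56.9% of all probes. The values over all probes were not matched for brightness. Of all probes, 69.7% lay below 0 in the brightest 3 bins and 45.3% in the dimmest 3. Loess on brightness took the median of the related genes to -0.03. By list the medians were -0.09 for other histone methyltransferases (53 probes), -0.12 for other acetyltransferases (11), -0.01 for other demethylases (10), -0.10 for Polycomb complexes (47), -0.02 for HDAC corepressor complexes (52), -0.07 for DNA methylation partners (35) and -0.07 for class IIa HDAC partners (25).

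The probe past 1.5-fold belonged to MBD1, a repressor that binds methylated CG. All 4 of its probes were higher in R-HL60, at 3610 and 4763 (0.39), 61.5 and 82.8 (0.42), 84.6 and 129 (0.60), and 1014 and 1369 (0.43). Their mean was 0.46 ± 0.09 (SD, n = 4 probes), and 70 of the 4721 genes (1.48%) had every probe at or above its lowest. MBD1 was named by its values, so this share is no test. The count past 1.5-fold was 0 with quantile normalization and in the authors' table. MEF2B, a transcription factor of the family that class IIa HDACs repress, was lower on both probes, at 10461 and 7823 (-0.43) and 3675 and 2780.1 (-0.41). A read-through transcript with the neighbouring gene BORCS8 also contains MEF2B sequence, so its probes may not separate them.

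The largest differences of the other lists were smaller than 1.5-fold. RCOR2, a CoREST scaffold that binds KDM1A and HDAC1, gave 387 and 264 (-0.56), and CREBBP, a histone acetyltransferase, gave 1290.2 and 1015 (-0.36). PCGF5, of a Polycomb repressive complex 1 variant, was higher on both probes (0.25 and 0.39), and HSPBAP1 gave 879 and 1096 (0.31). SUV420H1, a histone H4 lysine 20 methyltransferase, gave -0.37 on a probe near the floor and 0.03 and 0.06 on the others. The Polycomb partners of EZH2, SUZ12 and EED, named after their values were seen, lay at -0.10 and -0.08.

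**Figure D5:**
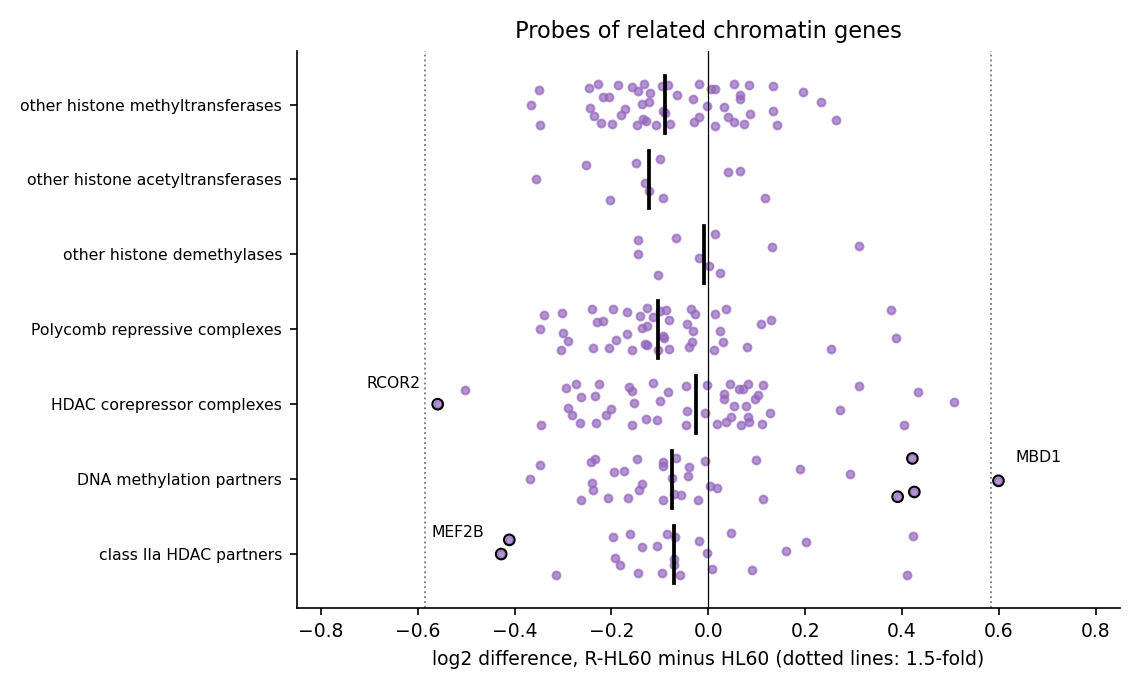
Log2 difference (R-HL60 minus HL60) of each measured probe in the 7 lists of related chromatin genes; black bars are list medians, dotted lines mark 1.5-fold and the circled probes belong to the named genes. The 4 MBD1 probes lie between 0.39 and 0.60 and both MEF2B probes near -0.42; UTY is left out.

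The enzyme genes share CG-rich starts. Of the 71, 64 were matched to RefSeq promoter windows of 300 bases (250 before and 50 after the start), 101 windows in all. Counting CG, which reads the same on both strands, member windows held a median of 28 against 14 over all 35116 windows, and 95.3% of the matched genes had a window of at least 15, against 52.0% of all genes with a window, non-coding genes included. TET1, with at most 11, HDAC8 with 9 and DNMT3B with 3 were the exceptions. DNA methylation was not measured.

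KDM4A-AS1, the only antisense member above the floor, gave 330 and 379 (0.19) and 455 and 438 (-0.06) on its probes. HDAC11-AS1 and PRMT5-AS1 lay below the floor on both arrays.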

How the data were processed

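Cy3-labelled RNA was read as 1 colour with Agilent Feature Extraction 10.7.3.1, per the submitters' processing notes. The authors deposited 1 linear intensity per probe and array with a gene name, and a table of normalized intensities of both arrays. Probe identifiers and sequences, background treatment, detection flags and the normalization method are not given in the sources used here. Rank by rank, its values differed by at most 1.06% from the average of the arrays' sorted intensities.

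Rows were joined by position, since names agreed row by row in all 3 tables. Each signal was taken to log2 and its array's 75th percentile subtracted. A probe above the floor on 1 array had a bound, computed against the higher of the other array's floor and the probe's own signal there, and entered the counts with it. With 1 array per line there was no test; the probe-to-probe SD pools deviations of probes from their gene's mean, in 10 equal bins of brightness. It leaves out the spread between cultures and arrays.

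Named members were those past 1.5-fold, the bounds, the extremes of each family, genes with probes over 0.5 apart and 22 genes of leukaemia or drug interest; other values are given for completeness. The related genes named were up to 3 per list past 1.5-fold, or else the largest difference. Members, lists and rules were chosen with earlier results of these data known. Y-linked genes are not given singly. The steps were checked on simulated data, with known changes placed only on brighter probes. Recovery of changes in probes as dim as that of HDAC9 was not checked. The alternatives tried were loess, quantile and median scaling, the authors' table, an offset of 50, no floor or one at percentile 40 or 60, probes measured on both arrays, 1 probe or the mean per gene, and 3-fold. Python 3.11.15, numpy 2.4.6, pandas 2.3.3, scipy 1.17.1, statsmodels 0.14.6 and matplotlib 3.10.9 were used.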

Additional observations from a re-analysis of the deposited data

How the results depend on the processing

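The member probes at least 2-fold lower fell from 1 to 0 with the offset of 50 units, with the mean of measured probes per gene and at 3-fold. Without a floor 2 member probes were 2-fold higher, 10 were 1.5-fold higher and 2 were 1.5-fold lower. The 2-fold higher ones were of DNMT3B (2.91 in HL60 and 11.3 in R-HL60) and PRMT8 (5.27 and 11.9), below the floor on both arrays. A floor at the 40th percentile gave 2 that were 1.5-fold higher. Shares of all probes under these settings are not given, so neither these counts nor those of related genes below have a background. For related genes the count 1.5-fold higher was 1 and became 0 with quantile normalization, the authors' table, the offset, the brightest probe per gene and the mean per gene; without a floor it was 4, with 4 lower. In the other 184 comparisons of counts, medians and spread with an alternative, counts stayed within 1.5 times and values moved by less than 0.19, the SD of single probes, which is wide for a median. Within it the KDM median changed sign (from 0.00 to as low as -0.04), loess took the median of related genes from -0.09 to -0.03 and that of DNMT probes from -0.11 to -0.04, and without a floor the probe-to-probe SD of members went from 0.17 to 0.33. Of 459 values of single probes, 2 moved by more, both with the offset: HDAC9 to -0.87 and KDM2B to -0.24. The number of arrays limits all of these values.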

Other observations

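MBD1, CXXC1 and MBD2, which all bind CG-containing DNA, lie on chromosome 18 in the RefSeq gene table, where MBD1 and CXXC1 are next to each other. CXXC1, a subunit of the SETD1A and SETD1B complexes, had a difference of 0.19 on its measured probe, and MBD2, of the NuRD complex, had 0.31. With the 4 probes of MBD1 between 0.39 and 0.60, all 6 measured probes of these genes were higher in R-HL60. Of all 28003 probes measured on both arrays, 12078 were above 0. MBD1 was named by its values, so the count of 6 is no test. Copy number was not measured, and other genes of chromosome 18 were not examined here. CXXC1 and MBD2 were picked after their values were seen. Other related genes picked in the same way were BMI1, a core subunit of Polycomb repressive complex 1, at -0.34 and -0.30 on its probes, and UHRF1, which brings DNMT1 to replicating DNA, at -0.24 and -0.17.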
